A study of Mus musculus with 8 samples.

Results

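The adrenergic receptors, the family that SR59230A is used to block, were described in N2A tumor masses. The members were taken by name: the 8 genes Adrb1, Adrb3, Adra1a, Adra1b, Adra1d, Adra2a, Adra2b and Adra2c, out of 35419 gene symbols with transcripts in the files. The study asked what SR59230A does to neuroblastoma (NB) growing in mice with an intact immune system, and total RNA of whole tumor masses was sequenced. Neuro-2a (N2A) is a mouse neuroblastoma line, and 1000000 cells were placed under the skin of A/J mice, which the study's methods give as females of the A/JCr substrain bought at 4 weeks of age. Of 8 tumors, 4 came from mice given SR59230A (tumors 1 to 4), at 10 mg/kg by intraperitoneal injection on a twice-daily schedule, and 4 from mice given vehicle, physiological solution, on the same schedule (tumors 0 to 3). Treatment began once a tumor could be felt, and the labels give no genetic change in either group. All tumors come from 1 cell line, a tumor mass also holds host cells, and the labels do not say that each tumor is a separate animal, so p-values measure the spread between these 8 samples.

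Adrenergic receptors are G protein-coupled receptors for noradrenaline and adrenaline, the catecholamines that NB cells themselves can make and secrete. The α1 subtypes (Adra1a, Adra1b, Adra1d) couple mainly to Gq and phospholipase C, the α2 subtypes (Adra2a, Adra2b, Adra2c) to Gi, which lowers cyclic AMP, and the β subtypes, Adrb1 and Adrb3 among them, to Gs, which raises it. In rodents Adrb3 is best known from adipocytes, where it drives lipolysis and heat production. SR59230A is an adrenergic receptor antagonist that is known to bind more than a single subtype.

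Salmon's estimated read counts per transcript were summed to genes. Totals ran from 23484190 to 43675495 (median 32597598.5) in the SR59230A tumors and from 28614914 to 44045575 (median 29995063) in the vehicle tumors. All 10 neuroblast markers examined were found in every tumor, with a summed level of 670 to 849 counts per 1000000 reads (CPM) in SR59230A tumors and 805 to 1106 CPM in vehicle tumors. Some libraries stood apart. The summed CPM of 8 skeletal muscle markers was 2149 and 184 in SR59230A tumors 1 and 2, 24.6 and 4.88 in SR59230A tumors 3 and 4, and 2.84 to 3.65 in the vehicle tumors. Olfactory receptor genes, a large family for odorant detection in the nose, took 0.181%, 0.110%, 0.299% and 0.178% of reads in SR59230A tumors 1 to 4, against 0.201%, 0.115%, 0.0951% and 0.362% in vehicle tumors 0 to 3. Because several receptor genes followed that order, these shares are given beside them. In bulk tissue, fewer cells of a type and less RNA per cell cannot be told apart.

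The 8 receptor genes together received 209 to 404 estimated reads per tumor (median 270), of which Adra2b took 47.8% to 85.0%. Counted over protein-coding transcripts and per length, as transcripts per 1000000 (TPM), Adra2b was the first of the 8 listed genes in 8 of 8 tumors, with a median of 2.13 TPM (1.91 to 4.09). Adra1a (median 0.220 TPM, 0.0198 to 0.758), Adra2a (0.216 TPM, 0.0734 to 0.529) and Adrb3 (0.101 TPM, 0 to 0.260) came next. Adrb1 (0.0249 TPM, 0 to 0.0433) and Adra1b (0.0172 TPM, 0 to 0.129) were lower still, and Adra1d and Adra2c had a median of 0 TPM. Over all its transcripts Adra1b had a median of 0.0674 TPM (0 to 0.155), so its place in this order depends on how its transcripts are labelled. The range of Adra2b did not overlap that of any other member on this scale. Every other pair of neighbours in the order overlapped, so neighbours below Adra2b are not resolved beyond the spread between tumors: Adra1a exceeded Adra2a in 4 of 8 tumors, Adra2a exceeded Adrb3 in 7 and Adrb3 exceeded Adrb1 in 6. Adra2a did not overlap Adrb1 or Adra2c, above both of which it lay in all 8 tumors. The level of Adra2b was 2.60 to 16.0 times that of the next member of the same tumor, and its share of the summed coding TPM of the 8 genes was 62.6% to 86.3% (median 77.0%). No sequence word of 31 bases was shared between transcripts of different members.

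**Figure D1:**
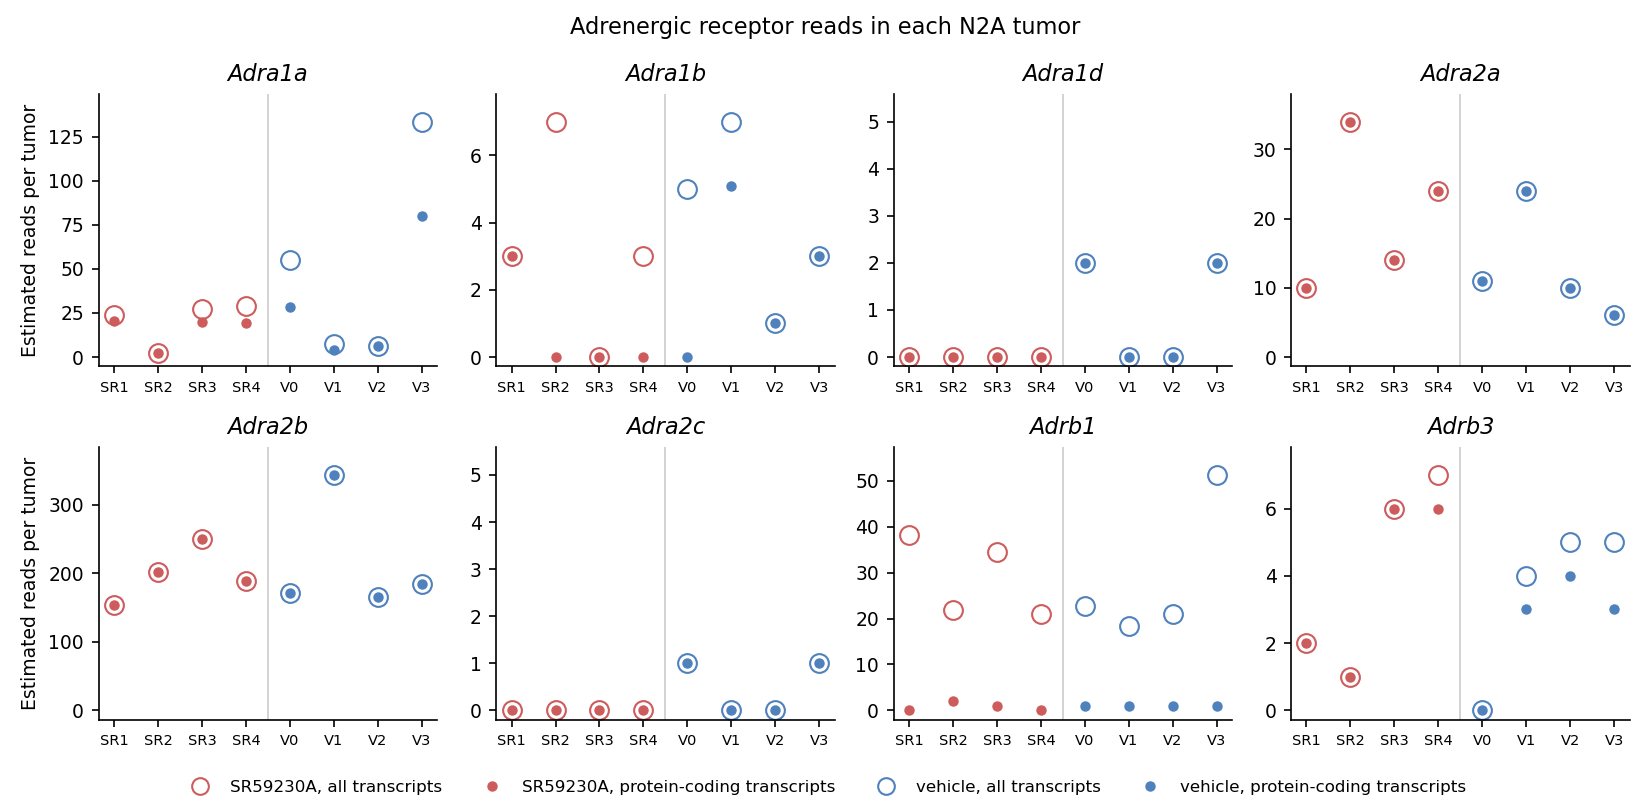
Estimated reads per tumor for the 8 adrenergic receptor genes (SR, SR59230A tumors 1 to 4; V, vehicle tumors 0 to 3), each panel with its own axis from 0; open circles count all transcripts of the gene and filled circles its protein-coding transcripts. Adra2b had 153 to 344 reads in every tumor, all on coding transcripts, whereas the open circles of Adrb1 (18.3 to 51.3 reads) lie far above its filled ones (0 to 2 reads).

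Adra2b, an intronless gene for an α2 receptor known from vascular smooth muscle and brain, lies on the plus strand at chr2:127363208-127367221 (GRCm38). It had 153, 202, 250 and 189 reads in SR59230A tumors 1 to 4, against 171, 344, 166 and 185 reads in vehicle tumors 0 to 3. Its TPM were 1.91, 2.13, 4.09 and 2.12 in SR59230A tumors, against 2.11, 3.47, 2.34 and 1.97 in vehicle tumors. The groups overlapped, SR59230A tumor 3 had the highest TPM of all and SR59230A tumor 1 the lowest. Both of its annotated transcripts are protein coding and share 3936 bases, and Salmon gave all reads to Adra2b-202 in 7 tumors and all to Adra2b-201 in vehicle tumor 0. The transcripts differ by 78 bases, so this switch was not read as a change of isoform. Only 1.03% of the 31-base words of Adra2b-202 occur in transcripts of other genes.

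Where Adra2b stood among genes in general was set by TPM against 1134 olfactory receptor genes, the receptors of the nose, and against 21716 protein-coding genes. The TPM of each adrenergic receptor was summed over its coding transcripts, but that of the genes it was set against over all their transcripts. Adra2b was above 92.8% to 98.4% of olfactory receptor genes (median 96.2%) and above 46.0% to 53.3% of all protein-coding genes. Adra2a was above 67.1% to 92.4% of olfactory receptor genes (median 82.5%), Adra1a above 70.1% to 86.9% (82.0%), and Adrb3 above 0% to 84.2% (74.9%). Thus all members but Adra2b sat in at least 1 tumor at a level that more than 1 olfactory receptor gene in 10 reached. The olfactory receptor genes were themselves unevenly read: their 99th percentile ran from 5.58 to 14.5 TPM in SR59230A tumors and from 5.26 to 16.4 TPM in vehicle tumors.

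**Figure D2:**
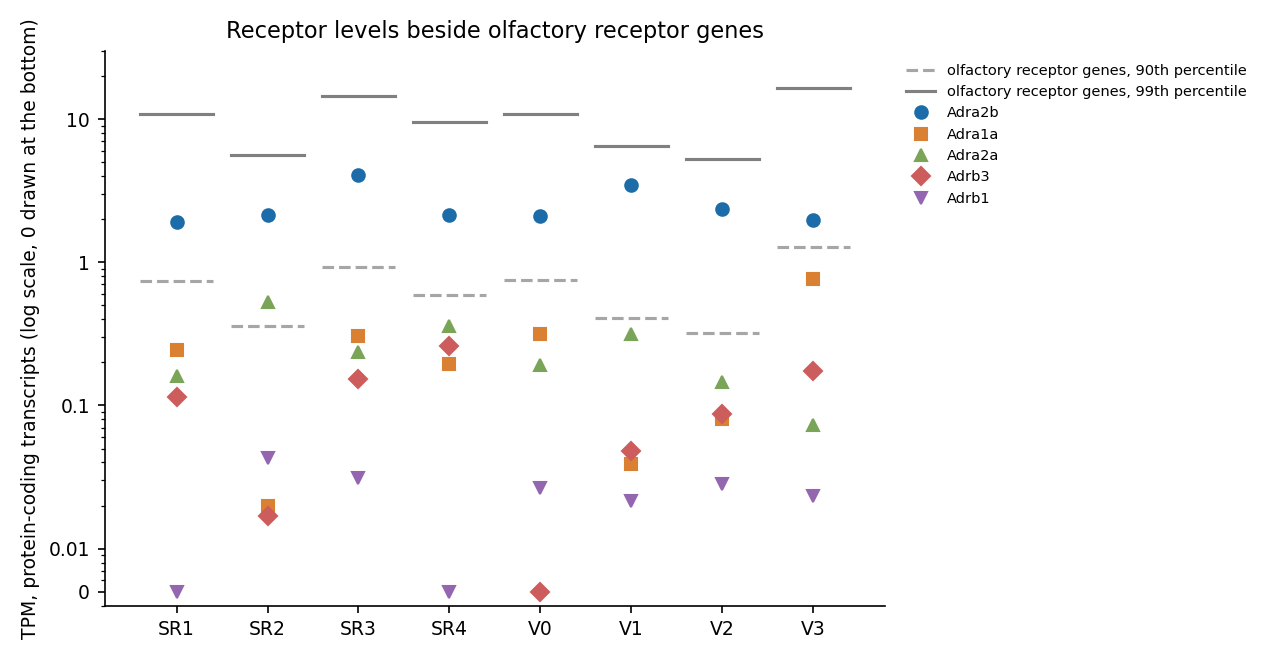
TPM over protein-coding transcripts (log scale, values of 0 drawn at the bottom) for 5 receptor genes in SR59230A tumors 1 to 4 (SR) and vehicle tumors 0 to 3 (V), with the 90th (dashed) and 99th (solid) percentiles of 1134 olfactory receptor genes. The percentiles are of TPM over all transcripts of the olfactory receptor genes. Adra2b lies between both percentiles in all 8 tumors, and the other receptors lie below the 90th percentile except Adra2a in SR59230A tumor 2.

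The promoter window of Adra2b is shown because it is the member with the most coding reads, beside that of Adrb1, whose coding transcript had almost none. Both windows, credited to RefSeq on build GRCm38.p6, run from 250 bases before to 50 bases after the start annotated there (chr2:127362929-127363228, plus strand, and chr19:56721867-56722166, plus strand). The gene coordinates given elsewhere here are from another annotation. By them Adra2b starts inside its window, at 127363208, but Adrb1 starts at 56722199, beyond the end of its window. Capitals mark matches, on either strand, to GGGCGG (the GC box) and TGACG (the core of the cAMP response element), and no match overlapped another.
Adra2b: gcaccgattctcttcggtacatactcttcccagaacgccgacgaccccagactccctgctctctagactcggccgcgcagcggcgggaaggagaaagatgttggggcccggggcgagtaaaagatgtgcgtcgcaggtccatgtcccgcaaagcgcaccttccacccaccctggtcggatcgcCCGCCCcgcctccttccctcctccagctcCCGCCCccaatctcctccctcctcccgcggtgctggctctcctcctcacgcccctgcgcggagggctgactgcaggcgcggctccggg
Adrb1: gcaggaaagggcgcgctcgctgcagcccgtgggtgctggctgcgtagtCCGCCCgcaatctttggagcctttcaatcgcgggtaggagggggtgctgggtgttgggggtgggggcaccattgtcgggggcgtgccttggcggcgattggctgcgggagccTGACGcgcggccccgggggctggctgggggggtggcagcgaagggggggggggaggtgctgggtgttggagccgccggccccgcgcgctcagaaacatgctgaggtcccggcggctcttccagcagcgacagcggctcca
The Adra2b window has 2 GC boxes, no TGACG, 29 CG pairs and a GC content of 68.0%, and the Adrb1 window has 1 GC box, 1 TGACG, 28 CG pairs and a GC content of 72.3%. Of 32851 RefSeq promoter windows of the same length, 35.7% hold a GC box, 20.8% hold TGACG and 13.6% hold TATAAA, which neither window has, and the median number of CG pairs is 7. Thus both windows are rich in CG pairs, while the coding reads of the genes differ by far. The promoter table matched 5 of the 8 members.

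Adra2a, the α2 receptor known as the main presynaptic brake on noradrenaline release, lies on the plus strand at chr19:54044151-54048982. It had 10, 34, 14 and 24 reads in SR59230A tumors 1 to 4, against 11, 24, 10 and 6 reads in vehicle tumors 0 to 3. This equals 0.273, 0.722, 0.681 and 0.824 CPM in SR59230A tumors, against 0.405, 0.492, 0.302 and 0.230 CPM in vehicle tumors. SR59230A tumors 2, 3 and 4 were above all 4 vehicle tumors, and SR59230A tumor 1 was below 3 of them, so the groups overlapped. Both Adra2a transcripts are protein coding and neither shares a 31-base word with another gene. Adra2c, the third α2 subtype, at chr5:35278319-35281763 on the plus strand, had 0 reads in all 4 SR59230A tumors, against 1, 0, 0 and 1 reads in vehicle tumors 0 to 3. A count of 0 over the SR59230A tumors allows up to 0.0228 reads per 1000000 reads (RPM, from 3 reads over the group, counting error only), and the vehicle tumors together had 0.0151 RPM (95% exact Poisson interval 0.00183 to 0.0547). Adra2c was therefore not detectable in SR59230A tumors at this depth, and no difference in its level can be read.

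Adra1a, an α1 receptor of smooth muscle, heart and neurons that raises cell calcium, lies on the plus strand at chr14:66635251-66771168. It had 23.7, 2.00, 27.4 and 28.7 reads in SR59230A tumors 1 to 4, against 55.1, 7.2, 6.07 and 134 reads in vehicle tumors 0 to 3. Vehicle tumors 3 and 0 were the highest and SR59230A tumor 2 the lowest, with the other vehicle tumors below 3 of the SR59230A tumors. Of its reads, 61.5% were given to the coding transcript Adra1a-202 and 36.4% to Adra1a-204, which retains an intron and is not annotated as coding. Adra1a-204 holds 883 of the gene's 1412 coding bases and shares 1775 bases with other transcripts of the gene. The split between coding and non-coding transcripts is therefore uncertain for Adra1a. Of the 31-base words of Adra1a-202 and Adra1a-204, 1.29% and 1.69% occur in transcripts of 393 and 61 other genes. The share on Adra1a-204 ran from 0% to 48.1%, the highest value being in vehicle tumor 0. Its CPM followed the olfactory receptor reads: vehicle tumor 3 was first in both, and SR59230A tumor 3 and vehicle tumor 0 took the next ranks in each. SR59230A tumor 2 and vehicle tumors 1 and 2 held the last 3 ranks in both. The part of those reads in the Adra1a level was not tested beyond the fit with an olfactory term given below.

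Adra1b, an α1 receptor known from liver, heart and vessels, lies on the minus strand at chr11:43774606-43901210. It had 3, 7, 0 and 3 reads in SR59230A tumors 1 to 4, against 5, 7, 1 and 3 reads in vehicle tumors 0 to 3. Of these 29 reads, 58.1% were placed on Adra1b-202, which is annotated as non-coding but contains the whole coding sequence. It has the same exons as the annotated coding transcript Adra1b-204, which has no values in these data. The split between coding and non-coding transcripts therefore cannot be relied on for this gene. Adra1d, an α1 receptor of large arteries, on the minus strand at chr2:131545850-131562283, had 0 reads in all 4 SR59230A tumors, against 2, 0, 0 and 2 reads in vehicle tumors 0 to 3. The vehicle tumors with reads of Adra1d and of Adra2c were the same, tumors 0 and 3, which are the vehicle tumors with the highest share of olfactory receptor reads (0.201% and 0.362%). SR59230A tumor 3 had a share of 0.299% and 0 reads of both genes. The part of these libraries in the Adra1d and Adra2c reads was not tested. Adra1d also overlaps the gene Gm14285 on the opposite strand over 147 bases, and whether Salmon used strand is not given in the sources used here.

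**Figure D3:**
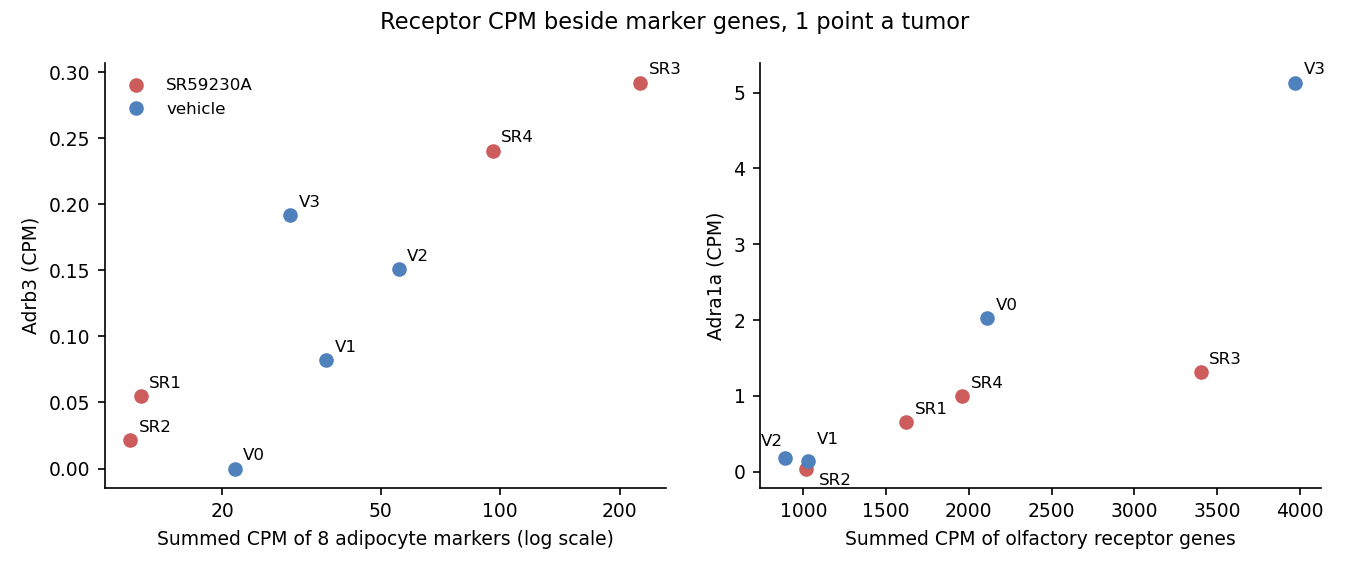
Left, Adrb3 CPM against the summed CPM of 8 adipocyte markers (log scale); right, Adra1a CPM against the summed CPM of olfactory receptor genes; each point is 1 tumor (SR, SR59230A; V, vehicle). SR59230A tumors 3 and 4 are the highest in both measures on the left (0.292 and 0.240 CPM of Adrb3), and vehicle tumor 3 is the highest in both on the right (5.13 CPM of Adra1a).

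Adrb3, a β subtype, lies on the minus strand at chr8:27225776-27250616. It had 2, 1, 6 and 7 reads in SR59230A tumors 1 to 4, against 0, 4, 5 and 5 reads in vehicle tumors 0 to 3. The groups overlapped throughout, with the 0 in a vehicle tumor and the 7 in an SR59230A tumor. Pooled over the tumors of each group, 16 reads in SR59230A tumors and 14 reads in vehicle tumors gave 0.121 (95% exact Poisson interval 0.0694 to 0.197) and 0.106 (0.0579 to 0.178) RPM. Their ratio, SR59230A over vehicle, was 1.15 with a counting interval of 0.524 to 2.53, which covers counting error only, and a difference inside it was not detectable at this depth. The 0 of vehicle tumor 0 allows up to 0.105 RPM. Of the 30 reads, 25 were given to protein-coding transcripts and 5 to the non-coding Adrb3-205. Adrb3-201, which had 14 of the reads, overlaps Gm45470 on the opposite strand over 545 bases, and Adrb3-205 overlaps it over 253 bases, so with the strand setting not given, reads of this locus are uncertain.

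The 2 tumors with the most Adrb3, on 6 and 7 reads, were those with the most adipocyte transcripts, and macrophage transcripts were high in them too. The summed CPM of 8 adipocyte markers (Adipoq, Fabp4, Plin1, Cidec, Lep, Retn, Cfd and Ucp1) was 12.5, 11.7, 225 and 95.9 in SR59230A tumors 1 to 4, against 21.5, 36.5, 55.6 and 29.6 in vehicle tumors 0 to 3. Adrb3 was at 0.0546, 0.0212, 0.292 and 0.240 CPM in SR59230A tumors, against 0, 0.0820, 0.151 and 0.191 CPM in vehicle tumors. SR59230A tumors 3 and 4 ranked first and second in both, and SR59230A tumors 1 and 2 and vehicle tumor 0 held the last 3 places in both. The summed CPM of 6 macrophage markers was 298, 290, 504 and 385 in SR59230A tumors 1 to 4, against 196, 256, 222 and 499 in vehicle tumors 0 to 3. Its 3 highest tumors, SR59230A tumors 3 and 4 and vehicle tumor 3, were the 3 highest in Adrb3, and vehicle tumor 0 was the lowest in both. All 6 adipocyte markers past the low-count filter had a higher mean level in SR59230A than in vehicle tumors (median log2 fold change 1.43), and none passed the test. The means of the 2 markers under the filter went the other way, each marker being at 0 in some tumors. Ucp1 averaged 0.092 ± 0.105 CPM in SR59230A tumors and 0.598 ± 1.17 CPM in vehicle tumors (SD). The vehicle SD of Ucp1 was above its mean, so no group direction can be read from it. Lep averaged 0 CPM in SR59230A tumors and 0.069 ± 0.059 CPM in vehicle tumors. The study also asked about tumor-infiltrating lymphocytes, and by flow cytometry it reported more CD8+ T cells in SR59230A-treated tumors. That result was for cells gated on CD45+, whereas the levels here are RNA of the whole tumor mass. The measures are unlike, so these RNA levels cannot decide whether CD8+ cell numbers differed. The summed CPM of 6 T cell markers was 1.19 to 1.31 in SR59230A tumors, against 1.33 to 3.75 in vehicle tumors, with Cd3e and Cd3g at 0 in some tumors. Of these markers 3 passed the low-count filter, all 3 with a negative log2 fold change (median -0.64). By edgeR 0 were called and 0 had an unadjusted p under 0.05. Among the 3, Cd8a averaged 0.359 ± 0.153 CPM in SR59230A tumors and 0.457 ± 0.387 CPM in vehicle tumors (log2 fold change -0.35). The part of adipocytes, macrophages or T cells in the Adrb3 level was not tested.

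Adrb1, the β1 receptor that drives heart rate and force, lies on the plus strand at chr19:56722199-56733113. It had 38.2, 21.8, 34.5 and 20.9 reads in SR59230A tumors 1 to 4, against 22.7, 18.3, 20.9 and 51.3 reads in vehicle tumors 0 to 3. When all transcripts were summed to the gene, Adrb1 was first of the 8 listed genes at a median of 2.66 TPM (1.66 to 5.29), above Adra2b in 6 of 8 tumors, and made 28.7% to 64.6% of the summed TPM of the 8 genes. These reads were not those of the receptor's coding transcript. The coding transcript Adrb1-201, a single exon of 2952 bases, had 0, 2, 1 and 0 reads in SR59230A tumors 1 to 4, against 1 read in each of the 4 vehicle tumors. The remaining 96.9% of the gene's reads were given to Adrb1-202, a non-coding transcript of 494 bases in 3 exons, none of whose bases lie in the coding sequence. The same few reads weigh more in TPM on the shorter transcript.

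Adrb1-202 shares only its first exon, 64 bases (chr19:56723863-56723926), with Adrb1-201. Its other exons lie beyond the end of Adrb1-201. Exon 2, at chr19:56725339-56725539 (GRCm38, plus strand), is shown because nearly all Adrb1 reads were given to a transcript that holds it and not to the receptor's coding transcript.
Adrb1-202 exon 2: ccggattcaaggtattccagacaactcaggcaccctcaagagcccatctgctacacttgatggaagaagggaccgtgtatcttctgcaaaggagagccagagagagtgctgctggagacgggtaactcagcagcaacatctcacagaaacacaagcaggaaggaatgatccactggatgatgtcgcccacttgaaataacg
Of its 201 bases, 0 lie in 31-base words that also occur, on either strand, in transcripts of other genes. Over the whole of Adrb1-202 14.7% of the 31-base words occur in transcripts of 350 other genes, against 0% for Adrb1-201. The files give reads per transcript and not per base, so which exon the reads came from was not tested. Adrb1-202 reads also went with the olfactory receptor reads: vehicle tumor 3 and SR59230A tumor 3 were first and second in both Adrb1 CPM (1.95 and 1.70) and olfactory reads. The part of those reads in the Adrb1 level was not tested beyond the fit with an olfactory term given below.

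**Figure D4:**
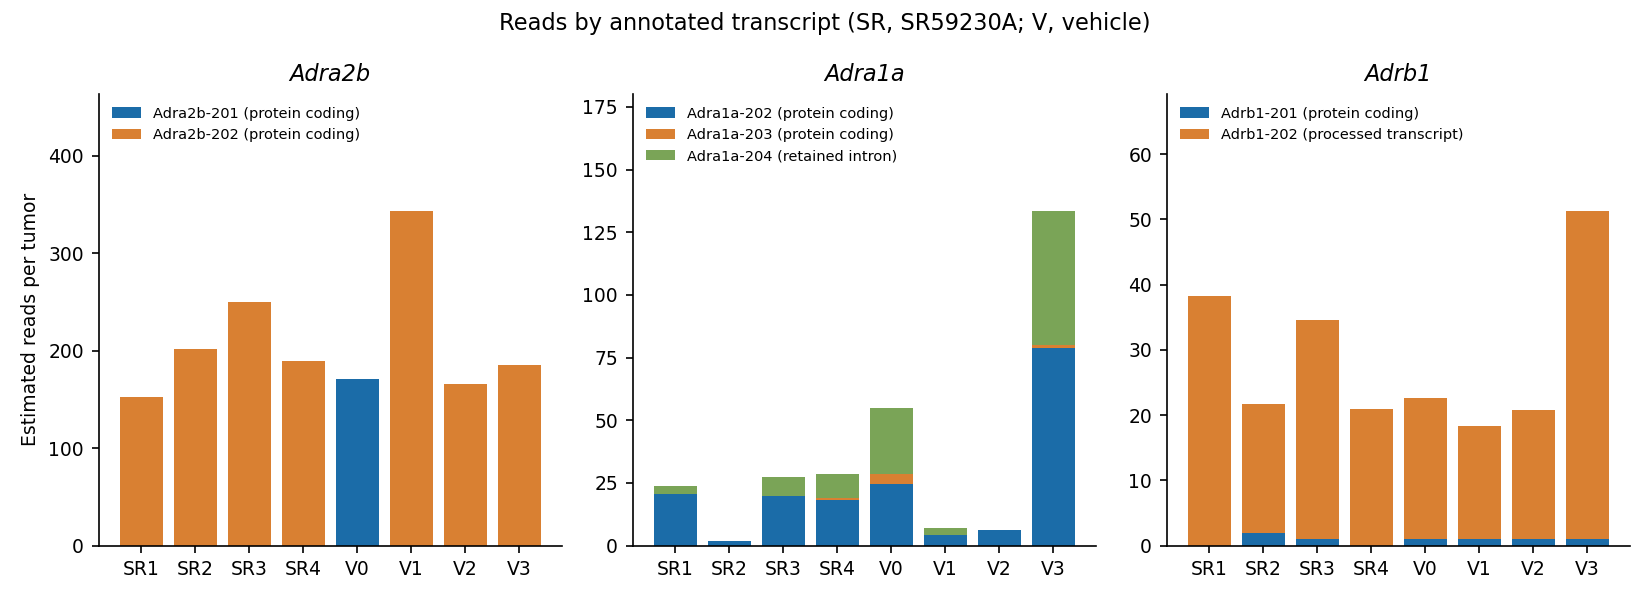
Stacked bars, from 0, of estimated reads per tumor by annotated transcript for Adra2b, Adra1a and Adrb1 (SR, SR59230A tumors 1 to 4; V, vehicle tumors 0 to 3), with the annotated transcript type in each legend. All Adra2b reads are on coding transcripts, 36.4% of Adra1a reads are on a retained-intron transcript, and 96.9% of Adrb1 reads are on a non-coding processed transcript.

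To ask whether SR59230A changed the level of its receptor family, the 4 SR59230A tumors were compared to vehicle condition with edgeR's quasi-likelihood test across 15193 genes, with Benjamini-Hochberg adjustment, and a gene was called where the adjusted p was under 0.05 and the log2 fold change was 0.5 or more in either direction. Of the 8 members, 4 passed the filter on low counts and were tested (Adra1a, Adra2a, Adra2b and Adrb1), and 0 of these 4 were called. The background was 0% of all genes tested, so the absence of calls says nothing particular to the receptors. At an unadjusted p under 0.05 edgeR had 704 genes (4.63%) and 0 members, and DESeq2 called 36 of 17845 genes (0.202%) and 0 members. The values of no member of the 8 were separated between the groups, against 2.61% of all genes tested by edgeR whose groups of 4 did not overlap.

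Adra2b averaged 6.78 ± 3.75 CPM in SR59230A tumors and 6.36 ± 0.971 CPM in vehicle tumors (SD, n = 4 each). Its log2 fold change was 0.08 (SE 0.34, 95% interval -0.68 to 0.85, edgeR adjusted p = 0.996). The larger spread in SR59230A tumors came from tumor 3, at 12.2 CPM against 4.17 to 6.49 CPM in the other SR59230A tumors, and without tumor 3 the log2 fold change was -0.36. Neither value differed from 0 beyond the spread between tumors.

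Adra2a averaged 0.625 ± 0.242 CPM in SR59230A tumors and 0.357 ± 0.115 CPM in vehicle tumors (SD, n = 4 each). Its log2 fold change of 0.78 (SE 0.43, 95% interval -0.19 to 1.74) had the smallest unadjusted p of the members, 0.102, and an edgeR adjusted p of 0.996. It was positive in all 8 fits that left out 1 tumor (0.62 to 1.03) and did not pass the test in any. By exact two-sided permutation of log2(CPM + 0.1) over 70 assignments, whose smallest possible p is 0.0286, p was 0.143.

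Adra1a averaged 0.752 ± 0.544 CPM in SR59230A tumors and 1.87 ± 2.34 CPM in vehicle tumors (SD, n = 4 each), with a log2 fold change of -1.33 (SE 1.15, 95% interval -3.91 to 1.24, edgeR adjusted p = 0.996). This value was decided by vehicle tumor 3, without which it was -0.06. It was 0.12 with the mean olfactory receptor level as a term, and 1.99 without vehicle tumors 0 and 3 and SR59230A tumor 4. Adra1a thus had no stable direction.

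Adrb1 averaged 0.982 ± 0.534 CPM in SR59230A tumors and 0.951 ± 0.696 CPM in vehicle tumors (SD, n = 4 each), with a log2 fold change of 0.04 (SE 0.57, 95% interval -1.23 to 1.32, edgeR adjusted p = 0.999). These are levels of Adrb1-202, and the 7 reads of the coding transcript were too few to test. The log2 fold change was 0.37 with the olfactory term, and -0.35 without SR59230A tumor 3 and 0.66 without vehicle tumor 3. For the members under the filter, exact two-sided permutation gave p = 0.657 for Adrb3, 0.486 for Adra1b, and 0.429 each for Adra1d and Adra2c.

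**Figure D5:**
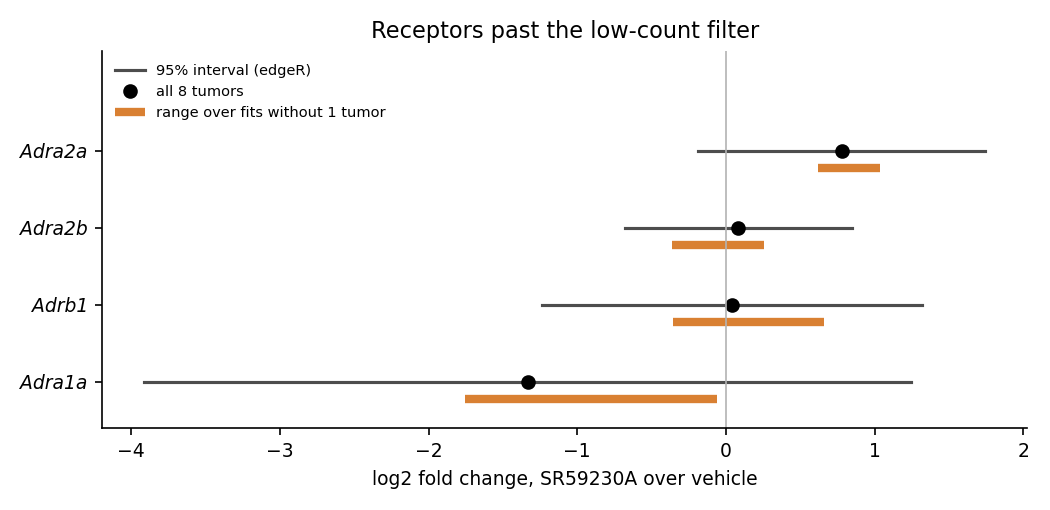
Log2 fold change, SR59230A over vehicle, of the 4 receptor genes past the low-count filter, with the 95% interval of the edgeR fit over all 8 tumors (thin line) and the range over the 8 fits that leave out 1 tumor (thick line below it). All 4 intervals span 0, and the thick line stays on 1 side of 0 for Adra2a (0.62 to 1.03) and Adra1a (-1.75 to -0.06).

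Among protein-coding genes past the filter, those whose log2 CPM went most closely with Adra2b over the 8 tumors were Samd11 (Pearson r = 0.988, Spearman rho = 0.929), Sptbn4 (r = 0.976, rho = 0.929) and Amdhd2 (r = 0.974, rho = 0.905). For Adrb1 the closest were Rgs9 (r = 0.993, rho = 1) and Srrm3 (r = 0.981, rho = 0.952). These were the best of 14350 genes over 8 points that share depth and library, and they are given as a description without a test.

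Genes of the receptors' signalling, of their ligands and of related receptors were examined by list, and 0 of the 39 tested were called by edgeR or by DESeq2. Of 9 G protein α subunits tested, 2 had a positive and 7 a negative log2 fold change (median -0.05), beside 7541 positive and 7652 negative over all genes (median -0.0016). Gnas, the Gs subunit through which β receptors raise cyclic AMP, was the most abundant at 569 TPM (340 to 813) and averaged 525 ± 57.3 CPM in SR59230A tumors and 617 ± 97.9 CPM in vehicle tumors. Gnaz, a subunit of the Gi class, averaged 9.24 ± 2.16 CPM in SR59230A tumors and 17.2 ± 5.10 CPM in vehicle tumors (log2 fold change -0.89, SE 0.25, unadjusted p = 0.00543, edgeR adjusted p = 0.996). Gnaz had the smallest unadjusted p of its list and did not pass the test.

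Of 7 receptor kinases and arrestins, which switch activated receptors off, 0 had a positive and 7 a negative log2 fold change (median -0.09), and 0 were called. Grk3 averaged 66.8 ± 6.29 CPM in SR59230A tumors and 85.0 ± 10.6 CPM in vehicle tumors (log2 fold change -0.35, SE 0.12). The arrestin gene Arrb1 averaged 66.8 ± 11.5 CPM in SR59230A tumors and 78.8 ± 13.4 CPM in vehicle tumors, and Grk6 was the most abundant of the list at 37.0 TPM. Of 7 adenylyl cyclases, the enzymes that make cyclic AMP, 5 had a positive and 2 a negative value (median 0.10). Adcy6 was the most abundant at 29.3 TPM, and Adcy9 (log2 fold change 0.28) and Adcy4 (0.30) had the smallest unadjusted p.

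Of 4 phospholipase C β genes, the effectors of α1 receptors, 1 had a positive and 3 a negative value (median -0.22). Plcb4, the most abundant at 44.6 TPM, averaged 98.4 ± 8.0 CPM in SR59230A tumors and 129 ± 19.5 CPM in vehicle tumors (log2 fold change -0.39, SE 0.13), and Plcb1 had a log2 fold change of -0.30. On the ligand side, 4 of 6 tested genes of noradrenaline synthesis, storage and uptake had a positive and 2 a negative value (median 0.12). The 2 were Th, which encodes the rate-limiting enzyme of catecholamine synthesis, and Dbh, which makes noradrenaline from dopamine. Th averaged 66.9 ± 18.8 CPM in SR59230A tumors and 116 ± 34.1 CPM in vehicle tumors (log2 fold change -0.80, SE 0.25), and Dbh averaged 75.4 ± 51.5 CPM in SR59230A tumors and 140 ± 29.8 CPM in vehicle tumors (-0.89, SE 0.41). Both are also neuroblast markers, and 9 of the 10 neuroblast markers tested had a negative log2 fold change (median -0.31), among them Isl1 (-0.40), Chga (-0.41) and Stmn2 (-0.34), with 0 called. The part of the neuroblast content in the Th and Dbh levels was not tested. Slc18a2, the vesicular transporter, was the most abundant of this list at 69.8 TPM, while Slc6a2, the noradrenaline uptake transporter, had 0.0989 TPM.

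Other aminergic and muscarinic receptors give a scale for the levels of the family. Of 10 dopamine and muscarinic receptor genes, 6 were tested, with 4 positive and 2 negative values (median 0.17) and 0 called. Chrm4, a Gi-coupled muscarinic receptor, was the most abundant at 11.1 TPM (7.15 to 18.1), above the 2.13 TPM (1.91 to 4.09) of Adra2b with no overlap between the ranges. Chrm2 averaged 0.993 ± 0.466 CPM in SR59230A tumors and 0.498 ± 0.241 CPM in vehicle tumors (log2 fold change 0.98, SE 0.50), and Drd4 averaged 0.395 ± 0.0476 CPM in SR59230A tumors and 0.589 ± 0.177 CPM in vehicle tumors (-0.59, SE 0.34). All SDs here are over n = 4 each, and every edgeR adjusted p on these lists was at least 0.996.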

How the data were processed

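Total RNA of 8 tumors was sequenced from stranded libraries. The study's methods name Salmon on the GRCm38 transcriptome, tximport and DESeq2, and the submitters' notes name GRCm39, Salmon and DESeq2. The authors deposited estimated counts and TPM per transcript for each tumor, and a gene table of counts normalized by DESeq2 (a signal scaled between libraries), which holds 5 of the 8 members. Salmon's strand setting is not given in the sources used here. Identifiers of 115685 of 116747 transcripts (99.1%) were found in GENCODE vM21 on GRCm38, the source of all gene coordinates, and 99.5% of these had the same length there.

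Estimated counts and TPM were summed per gene, over all and over protein-coding transcripts, and counts were rounded. Tumors were compared with edgeR 4.0.16 (R 4.3.3, TMM factors, filterByExpr with a minimum count of 10, quasi-likelihood test, Benjamini-Hochberg adjustment over all genes). CPM are on TMM library sizes. Single genes were also compared by exact two-sided permutation of log2(CPM + 0.1). Alternatives used DESeq2 1.42.0, limma 3.58.1 on log2(TPM + 0.1) and log2(TPM + 1), RLE factors, other filters, transcript length offsets, blocks, an olfactory receptor term, the deposited normalized counts and left-out tumors. The fit on protein-coding transcripts alone and the fit on tumors 1 to 3 without a block were chosen after seeing the data. Scripts were tested on simulated data.

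Members and gene lists were chosen with earlier results of these data known. Named genes were all 8 members; on each pathway list, at most 2 genes with the smallest unadjusted p and the most abundant by median TPM; and, for receptors with at least 10 estimated reads in every tumor, the 3 genes with the highest Pearson r, of which 1 is not reported here, as is 1 further adrenergic receptor gene. Intervals of RPM are exact Poisson intervals at 95% and, like the limit of 3 reads for a count of 0, cover counting error only.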

Additional observations from a re-analysis of the deposited data

How the results depend on the processing

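No receptor was called by edgeR in any of the settings tried, nor by DESeq2 or limma, and the direction of Adra2a stayed positive in all 22 alternatives to its fit (0.16 to 1.05). The number of genes called over the whole table was 0 in the edgeR fit over all tumors, 36 with DESeq2, and 0 to 1 when each tumor was left out in turn (1 without SR59230A tumor 4). Whether the replicate numbers pair the tumors was not settled. The correlations of same-numbered tumors 1 to 3 were -0.094, 0.614 and 0.606. Those of differently numbered tumors ran from -0.712 to 0.595, the highest being SR59230A tumor 2 with vehicle tumor 1. With the replicate block over tumors 1 to 3 of each group, 2 genes were called, against 1 for the same tumors without it, and the log2 fold change of Adra2b was -0.065. The log2 fold change of Adra2b was -0.020 with tumors 1 and 2 of each group set against the others as a block and -0.049 by limma on the deposited normalized counts. That of Adra1a was 1.99 without vehicle tumors 0 and 3 and SR59230A tumor 4 and 0.12 with the olfactory receptor term. Leaving out 1 tumor gave log2 fold changes of -0.36 to 0.26 for Adra2b, -0.35 to 0.66 for Adrb1, -1.75 to -0.06 for Adra1a and 0.62 to 1.03 for Adra2a. Mean differences in log2(CPM + 0.1) ranged over the same left-out tumors from -0.36 to 0.15 for Adra2b, -0.19 to 0.52 for Adrb1, -1.19 to 0.28 for Adra1a and -0.084 to 0.52 for Adrb3, and no permutation p was under 0.0571. The difference for Adra2b was -0.04, but 0.016 in log2(TPM + 0.1) and 0.020 without vehicle tumors 0 and 3 and SR59230A tumor 4. Without those 3 tumors it was 1.03 for Adra1a and -0.14 for Adrb3, and over protein-coding transcripts it was -0.12 for Adrb1, where it was 0.13 over all. The cause of these changes of direction was not tested. Depth limits what can be said of Adra1b, Adra1d, Adra2c, Adrb3 and the coding transcript of Adrb1, which had 0 to 7 reads in each tumor.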
